A study of Homo sapiens with 3 samples.

Results

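Ribosome footprints of 32 genes of glycolysis, glucose and lactate transport were followed in cells that expressed wild-type (WT) or mutant p53. The genes were chosen by name as the enzymes that turn glucose into pyruvate and lactate, the PFKFB enzymes that set the pace of phosphofructokinase, the E1 subunits of pyruvate dehydrogenase (PDH) with the kinases that inhibit it, and the main carriers of glucose and lactate. All 32 were found among the 63241 genes of the table, and all 32 were among the 19820 genes that passed the filter on low counts. Ribosome profiling (Ribo-seq) sequences the pieces of mRNA that a ribosome covers, so the count of a gene follows how many ribosomes sat on its mRNA. No RNA-seq of the same dishes was used here, and a footprint count does not separate the amount of an mRNA from how often it is translated.

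The cells were HEK293T, a human embryonic kidney line in which the SV40 large T antigen binds p53. The 3 groups carried a WT, a G245S or a R273H p53 construct, and both mutants are recurrent cancer changes in the DNA-binding domain. Per the study's methods the lines were made with lentivirus and kept under puromycin, while the labels call the cells both stable lines and transiently transfected, and the treatment label of both mutants names the WT construct, so groups were taken from the sample titles. All dishes were treated with cycloheximide for 2 min before harvest. Each group has 3 dishes (n = 3) with 18.7 to 24.6 M counts a library. The dishes of a group were pooled at reverse transcription, so group and pool cannot be told apart, and the p-values measure only the spread between dishes up to that step. No group without a p53 construct was analysed here.

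In glycolysis, hexokinase traps glucose in the cell as a phosphate ester, phosphofructokinase commits it to breakdown, and the lower steps from GAPDH to pyruvate kinase return ATP and NADH. Lactate dehydrogenase then reduces pyruvate to lactate, which leaves the cell through monocarboxylate carriers, or PDH passes pyruvate on to the mitochondrion. Dividing cells in culture run this route at a high rate, and the transcription factors MYC, HIF-1 and p53 are all known to act on some of its genes.

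Of the 32 genes, 15 rose and 1 fell in G245S against WT, while 16 rose and none fell in R273H against WT (edgeR quasi-likelihood test, adjusted p under 0.05 over all 19820 genes). In G245S, 24.7% of all genes tested were called in either direction, 12.6% higher and 12.1% lower. In R273H, 28.8% of all genes were called, 14.2% higher and 14.6% lower. The changes were small. The median log2 fold change of the 32 genes was 0.11 in G245S and 0.092 in R273H, beside -0.00069 and -0.0024 over all genes tested, and no gene of the 32 passed a test for a change beyond 1.2-fold (glmTreat) in either mutant. Both mutants were set against the same 3 WT libraries, so the comparisons are not independent of each other. Much of the list is abundant, and small changes are called more often in abundant genes. Among 2474 genes whose mean count was 2000 or more, 33.9% were called higher in G245S and 32.9% in R273H, whereas of the 17 listed genes at that level 13 were called in G245S and 12 in R273H, each of them higher.

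**Figure D1:**
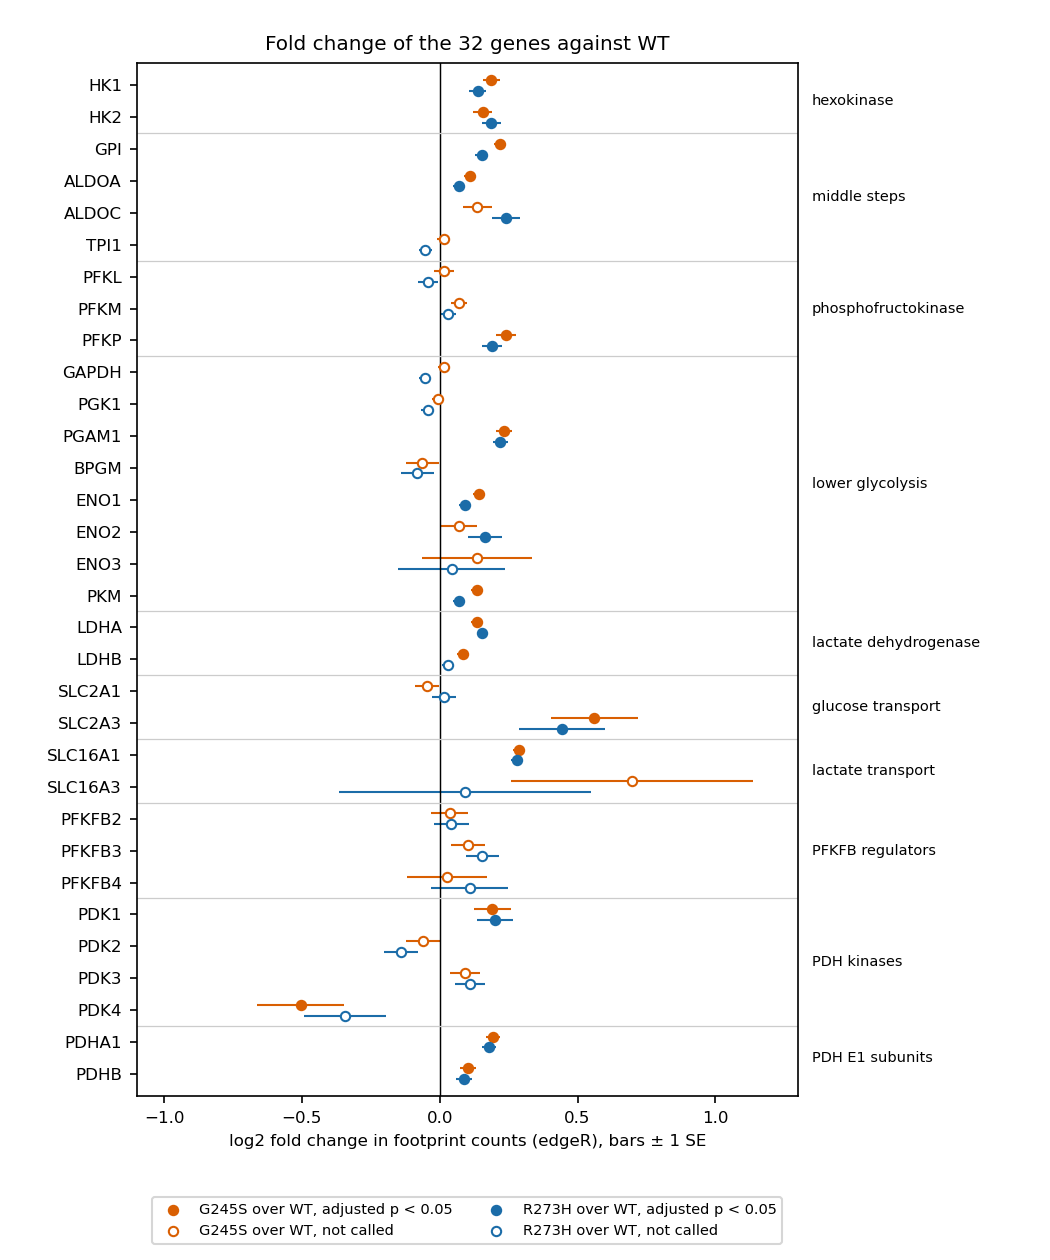
Log2 fold change of footprint counts in G245S (orange) and R273H (blue) over WT for the 32 genes, grouped by step, with bars of 1 standard error (SE) from edgeR. Filled points passed an adjusted p under 0.05; in G245S 15 of these lie to the right of 0 and 1 (PDK4) to the left, and in R273H 16 lie to the right.

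Dish by dish, in G245S 16 of the 32 genes had every mutant dish above every WT dish and 1 had every mutant dish below, while 18.6% of all genes tested had every G245S dish above WT and 18.8% every dish below. In R273H, 16 genes lay wholly above WT and 4 wholly below, while 20.3% of all genes had every R273H dish above WT and 20.9% every dish below. The 4 genes wholly below WT in R273H were TPI1, GAPDH, PDK2 and PDK4, none of which passed the test there (adjusted p = 0.091, 0.057, 0.085 and 0.087, edgeR).

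Per kilobase of coding sequence, the footprint density of the 32 genes ran over about the same order in the 3 groups. GAPDH, which oxidizes glyceraldehyde 3-phosphate, had the highest density in every group, with 2726 CPM per kb in WT, 2755 in G245S and 2624 in R273H (CPM, counts scaled to a common library total). ENO1 followed with 2066, 2281 and 2201 CPM per kb, then LDHB with 1730, 1832 and 1764. The enzymes ALDOA, PKM, TPI1 and PGK1 and the subunit LDHA lay between 790 and 1457 CPM per kb in all groups. The hexokinases HK1 and HK2 and the phosphofructokinase subunits lay far lower, between 36.1 and 89.7 CPM per kb. ENO3, PFKFB4, SLC2A3 and PDK4 had between 2.06 and 3.76 CPM per kb, and SLC16A3 had at most 0.42. These densities assume the coding length of the canonical transcript and are descriptions only.

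**Figure D2:**
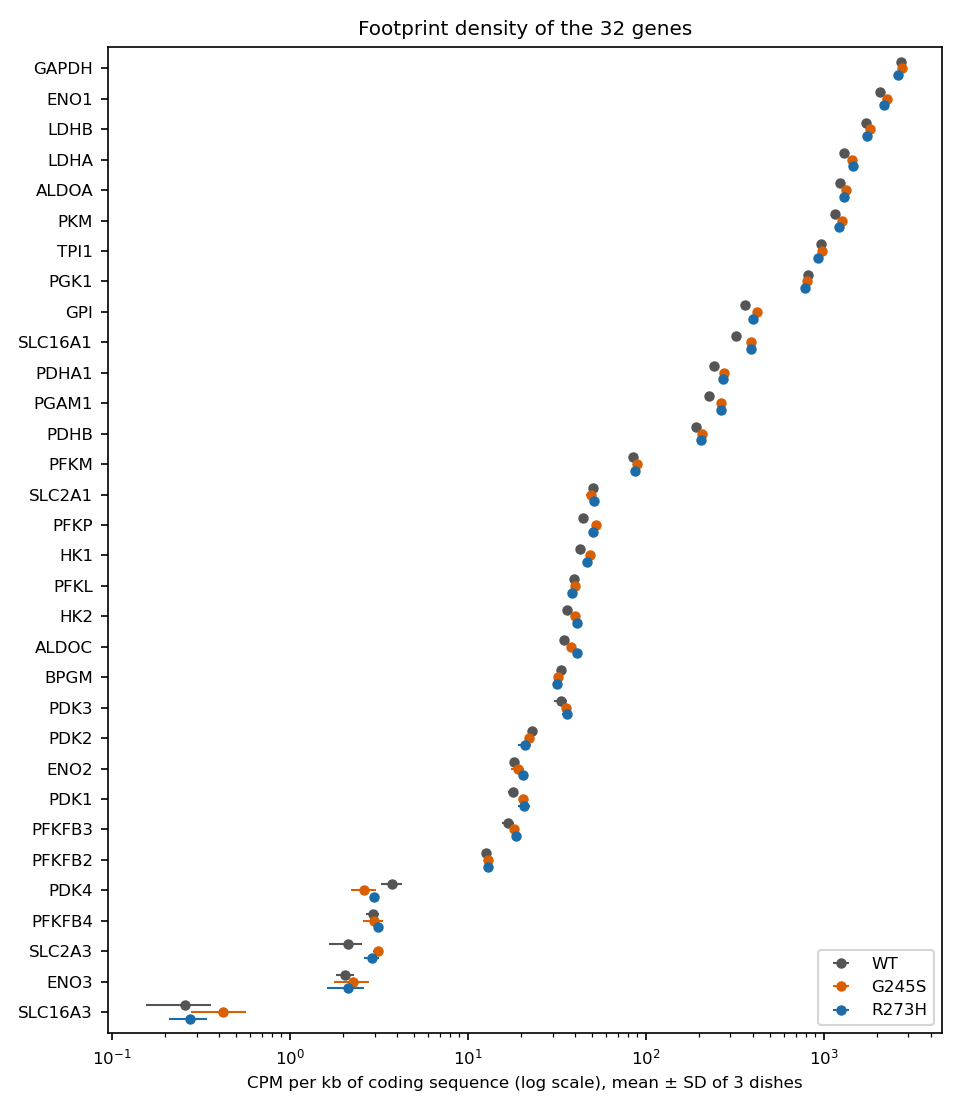
Footprint density of the 32 genes, in CPM per kb of coding sequence on a log axis, as mean ± SD of 3 dishes for WT (grey), G245S (orange) and R273H (blue). GAPDH is highest in every group (2726, 2755 and 2624 CPM per kb) and SLC16A3 lowest.

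Hexokinase carries out the entry step. HK1, the form found in most tissues, had 118 ± 3.02 CPM in WT (mean ± SD of 3 dishes, as for the values that follow), 134 ± 1.73 CPM in G245S and 130 ± 3.39 CPM in R273H. HK2, the form induced in growing and tumor cells, had 99.3 ± 2.50, 111 ± 3.92 and 113 ± 0.765 CPM. Both genes rose in both mutants, HK1 by 0.19 ± 0.032 on the log2 scale in G245S (SE; adjusted p = 6.1e-05, edgeR) and by 0.14 ± 0.032 in R273H (adjusted p = 0.0015). HK2 rose by 0.16 ± 0.034 (adjusted p = 0.0011) and by 0.19 ± 0.034 (adjusted p = 9.3e-05). The ratio of HK2 to HK1 was 0.842 ± 0.00962 in WT, 0.825 ± 0.0212 in G245S and 0.873 ± 0.0170 in R273H, and only the R273H dishes lay wholly above those of WT.

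GPI, which turns glucose 6-phosphate into fructose 6-phosphate (chr19:34359480-34402413, plus strand, GRCh38), rose in both mutants. Its WT dishes gave 618, 603 and 601 CPM, its G245S dishes 707, 722 and 692 CPM, and its R273H dishes 666, 681 and 677 CPM. Every mutant dish lay above every WT dish, and the G245S dishes lay above those of R273H. The log2 fold change was 0.22 ± 0.023 in G245S (adjusted p = 2.9e-08, edgeR) and 0.15 ± 0.023 in R273H (adjusted p = 1.0e-05).

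Phosphofructokinase is built from the subunits PFKP, PFKM and PFKL, of which PFKP passed the test. PFKP, the platelet subunit (chr10:3066333-3137718, plus strand), had 106, 107 and 101 CPM in the WT dishes, 126, 123 and 122 CPM in G245S and 122, 122 and 114 CPM in R273H. No mutant dish reached down to the WT range. PFKP rose by 0.24 ± 0.036 on the log2 scale in G245S (adjusted p = 8.5e-06, edgeR) and by 0.19 ± 0.035 in R273H (adjusted p = 0.00014). The muscle subunit PFKM, at 200 ± 7.45 CPM in WT, and the liver subunit PFKL, at 93.2 ± 2.81 CPM, were not called in either mutant. The fold change with 2 SE on either side reached from 0.0088 to 0.13 for PFKM in G245S and from -0.056 to 0.089 for PFKL there, and a fit with an offset for coding length and GC content called PFKM higher in G245S (adjusted p = 0.038). The ratio of PFKP to PFKL was 1.12 ± 0.0128 in WT, 1.31 ± 0.0110 in G245S and 1.32 ± 0.0229 in R273H, without overlap between WT and either mutant.

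Aldolase splits the 6-carbon sugar and TPI1 interconverts the pieces. ALDOA, the main aldolase, had 1550 ± 21.8 CPM in WT, 1672 ± 44.6 in G245S and 1626 ± 8.60 in R273H, a rise of 0.11 ± 0.022 on the log2 scale in G245S (adjusted p = 0.00045, edgeR) and 0.069 ± 0.022 in R273H (adjusted p = 0.018). The R273H call of ALDOA was lost without WT dish 2, R273H dish 1 or R273H dish 2 (adjusted p = 0.088, 0.057 and 0.068). ALDOC, the brain form (chr17:28573115-28576948, minus strand), had 38.9, 38.0 and 37.1 CPM in the WT dishes, 43.6, 42.8 and 39.3 in G245S, and 45.9, 46.5 and 42.5 in R273H. Every mutant dish of ALDOC was above every WT dish, with dish 3 of each mutant the lowest of its group. ALDOC rose in R273H (log2 fold change 0.24 ± 0.051, adjusted p = 0.00055), and its log2 fold change of 0.14 ± 0.053 in G245S missed the threshold (adjusted p = 0.058) but passed it without G245S dish 3 or R273H dish 3 (adjusted p = 0.016 and 0.046), under upper-quartile scaling (0.038) and with the coding length and GC offset (0.010). TPI1, at 724 ± 17.0 CPM in WT, was not called in either mutant, but was called higher in G245S in the fit with a coding length and GC offset (adjusted p = 0.047).

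In the lower part of the pathway PGAM1, ENO1 and PKM rose in both mutants, and GAPDH and PGK1 did not. GAPDH had 2758, 2701 and 2760 CPM in the WT dishes, 2851, 2766 and 2691 in G245S, and 2625, 2654 and 2632 in R273H. Its G245S dishes spanned the WT range and its R273H dishes lay below it. The log2 fold change of GAPDH was 0.015 ± 0.022 in G245S (adjusted p = 0.66, edgeR) and -0.055 ± 0.022 in R273H (adjusted p = 0.057), and passed the threshold there by DESeq2 (adjusted p = 0.025) and without G245S dish 3 (adjusted p = 0.046). PGK1, the first step that returns ATP, stood at 1018 ± 16.2 CPM in WT, 1014 ± 4.40 in G245S and 988 ± 21.3 in R273H, with log2 fold changes of -0.0066 ± 0.022 and -0.044 ± 0.022 (adjusted p = 0.87 and 0.14), the first of which was 0.0058 under upper-quartile scaling.

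PGAM1, the phosphoglycerate mutase (chr10:97426191-97433444, plus strand), had 169, 171 and 178 CPM in the WT dishes, 203, 205 and 200 in G245S, and 202, 199 and 202 in R273H. The mutant dishes lay close together and wholly above WT. Its log2 fold change was 0.23 ± 0.028 in G245S (adjusted p = 3.5e-07, edgeR) and 0.22 ± 0.028 in R273H (adjusted p = 5.8e-07). BPGM, which makes the 2,3-bisphosphoglycerate of red cells, was not called at 26.1 ± 0.865 CPM in WT.

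ENO1, the main enolase, rose from 2690 ± 10.3 CPM in WT to 2970 ± 47.4 in G245S and 2865 ± 19.4 in R273H (log2 fold changes 0.14 ± 0.020 and 0.091 ± 0.020, adjusted p = 3.5e-06 and 0.00091, edgeR). PKM, pyruvate kinase, rose from 1845 ± 18.8 CPM to 2029 ± 56.9 in G245S and 1937 ± 2.18 in R273H (0.14 ± 0.022 and 0.070 ± 0.022, adjusted p = 2.3e-05 and 0.016), and its R273H call was lost without WT dish 2 (adjusted p = 0.066). Counts per gene do not tell apart its M1 and M2 splice forms. ENO2, the neuronal enolase, was called higher in R273H only just (log2 fold change 0.16 ± 0.063, adjusted p = 0.0495) and lost the call in 6 of the 9 fits that left out 1 dish: without WT dish 2 or 3, G245S dish 2 or any R273H dish the adjusted p was 0.053 to 0.20. DESeq2 did not call ENO2 (adjusted p = 0.18). The muscle enolase ENO3, with a mean of 59.1 counts a library, was not called.

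Lactate dehydrogenase is a tetramer of LDHA and LDHB subunits, whose ratio lay apart in the 3 groups. LDHA, which favours the making of lactate, had 1303 ± 15.1 CPM in WT, 1431 ± 9.47 in G245S and 1451 ± 10.7 in R273H. Its log2 fold changes of 0.14 ± 0.021 and 0.16 ± 0.021 passed the test (adjusted p = 1.2e-05 and 1.1e-06, edgeR). LDHB had 1733 ± 21.5, 1835 ± 39.5 and 1768 ± 27.1 CPM and rose in G245S (0.083 ± 0.022, adjusted p = 0.0054), while its R273H value of 0.028 ± 0.022 was not called (adjusted p = 0.36). The ratio of LDHA to LDHB was 0.752 ± 0.00328 in the WT dishes, 0.780 ± 0.0117 in G245S and 0.821 ± 0.0121 in R273H. Each mutant lay wholly above WT in this ratio, and the R273H dishes, from 0.813 to 0.835, lay above the G245S dishes, from 0.769 to 0.792.

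SLC16A1, the lactate and pyruvate carrier MCT1 (chr1:112911847-112957593, minus strand), had the smallest adjusted p of the 32 genes in both mutants. The WT dishes gave 484, 474 and 485 CPM, the G245S dishes 583, 582 and 595, and the R273H dishes 587, 579 and 585. The 6 mutant dishes formed a narrow band above WT. The log2 fold change was 0.29 ± 0.023 in G245S, a rise of 22.0% (adjusted p = 7.7e-11, edgeR), and 0.28 ± 0.023 in R273H, a rise of 21.4% (adjusted p = 1.2e-10). SLC16A3, the lactate exporter MCT4 of strongly glycolytic cells, held only 9.33 counts a library on average, and its fold changes of 0.70 ± 0.44 and 0.093 ± 0.46 could not be told from 0 at this depth.

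Of the glucose carriers, SLC2A1 (GLUT1), the main carrier of most cultured cells, was not called at 75.1 ± 0.999 CPM in WT, 72.9 ± 4.86 in G245S and 76.0 ± 2.90 in R273H. SLC2A3 (GLUT3), a high-affinity carrier of neurons and tumor cells (chr12:7919230-8019007, minus strand), is sparse here. It had 3.92, 2.80 and 2.74 CPM in the WT dishes, 5.04, 4.58 and 4.44 in G245S, and 3.82, 4.57 and 4.53 in R273H. The G245S dishes lay above WT, and 1 R273H dish lay just under WT dish 1, the highest of WT. SLC2A3 was called higher in G245S (log2 fold change 0.56 ± 0.16, adjusted p = 0.0095, edgeR) and in R273H (0.44 ± 0.16, adjusted p = 0.033), and lost the call without WT dish 2 in G245S (adjusted p = 0.054) and, in R273H, without WT dish 2 or 3 or R273H dish 2 or 3 (adjusted p = 0.092 to 0.14). DESeq2 called SLC2A3 in neither mutant (adjusted p = 0.060 and 0.15). SLC2A14 is a near copy of SLC2A3 whose reads the counting could exchange with it. With its named copies added, SLC2A3 gave log2 fold changes of 0.64 and 0.65 (adjusted p = 0.0026 and 0.0016, edgeR). SLC2A14 alone was near the floor, with a mean of 8.56 counts a library. It had 0.070 CPM in WT, 0.38 in G245S and 0.70 in R273H, and these counts enter the sum.

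**Figure D3:**
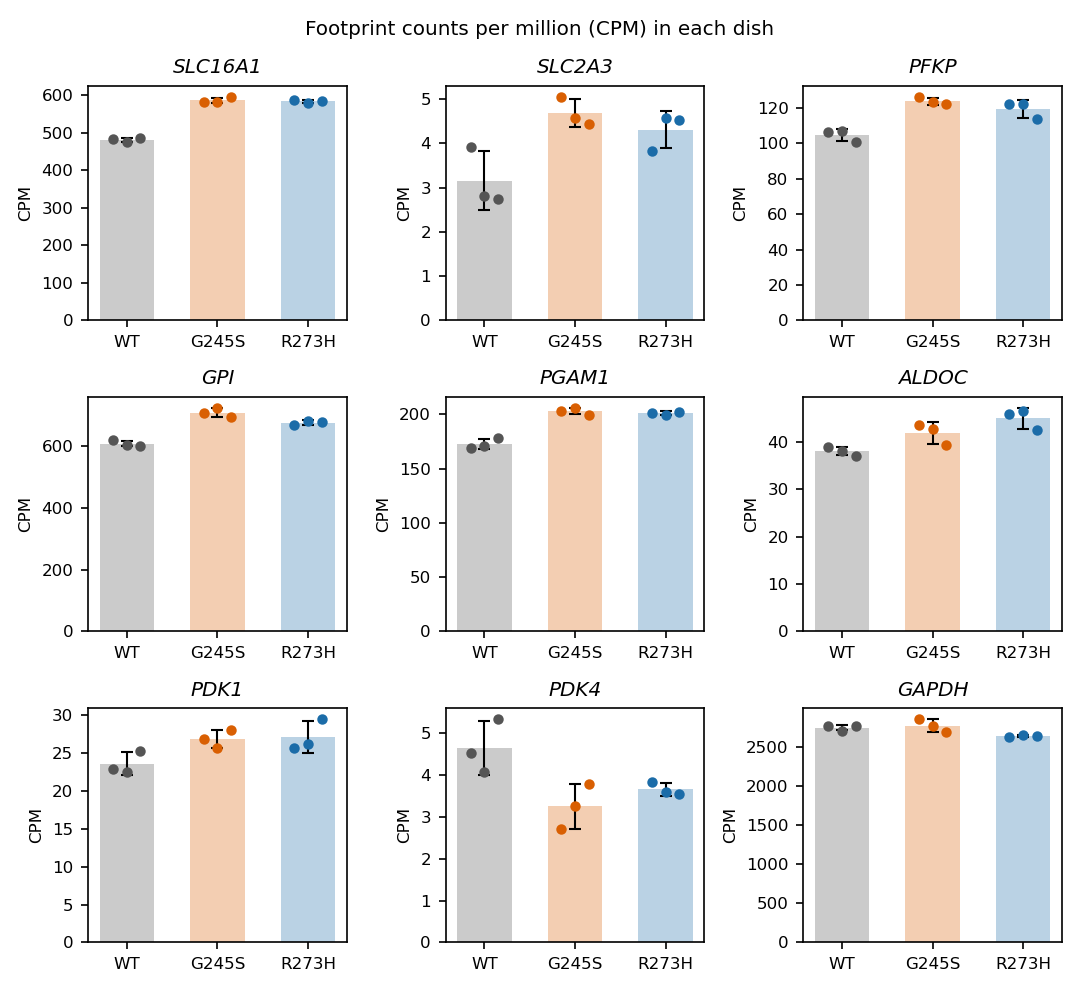
CPM of 9 genes in each dish (points), with the group mean (bar, from 0) and SD of 3 dishes (line), for WT (grey), G245S (orange) and R273H (blue). SLC16A1, PFKP, GPI, PGAM1, ALDOC and PDK1 have every mutant dish above every WT dish, PDK4 has every mutant dish below, and the GAPDH dishes of G245S span those of WT.

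The PFKFB enzymes make and break fructose 2,6-bisphosphate, the activator of phosphofructokinase, and none of the 3 measured passed the test. PFKFB3, the form with the strongest kinase activity, had 26.3 ± 2.03 CPM in WT, 28.3 ± 1.44 in G245S and 29.3 ± 0.818 in R273H (log2 fold changes 0.10 ± 0.062 and 0.16 ± 0.060, adjusted p = 0.25 and 0.053, edgeR). The R273H value sat at the threshold and passed it in 9 of the 19 alternative fits, with no filter, other scalings or without WT dish 1 (adjusted p = 0.035) or G245S dish 3 (0.044) among them. PFKFB2 and PFKFB4 had fold changes between 0.027 and 0.11, each within 1 SE of 0.

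At the branch from pyruvate to the mitochondrion, both PDH E1 subunits rose in both mutants. PDHA1, the catalytic alpha subunit, had 283 ± 5.14 CPM in WT, 324 ± 3.65 in G245S and 321 ± 5.74 in R273H (log2 fold changes 0.19 ± 0.026 and 0.18 ± 0.025, adjusted p = 1.4e-06 and 3.1e-06, edgeR). PDHB, its beta partner, had 208 ± 4.11, 223 ± 3.80 and 221 ± 7.07 CPM (0.10 ± 0.029 and 0.089 ± 0.029, adjusted p = 0.0099 and 0.019). The PDHB call was lost without WT dish 2 in G245S (adjusted p = 0.063), and without WT dish 1 or 2 or R273H dish 3 in R273H (adjusted p = 0.052, 0.10 and 0.13).

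The kinases that switch PDH off did not move together. PDK1 (chr2:172555373-172608669, plus strand) had 22.9, 22.5 and 25.3 CPM in the WT dishes, 26.8, 25.7 and 28.1 in G245S, and 25.7, 26.2 and 29.5 in R273H. The mutant dishes were above WT by a narrow margin, with WT dish 3 close under the lowest of them. PDK1 rose by 0.19 ± 0.067 on the log2 scale in G245S (adjusted p = 0.035, edgeR) and by 0.20 ± 0.065 in R273H (adjusted p = 0.020), and DESeq2 did not call it (adjusted p = 0.14 and 0.093). The G245S call was lost without WT dish 1 or 2 or G245S dish 1 or 3 (adjusted p = 0.070 to 0.15), and the R273H call without WT dish 1 or 2 or R273H dish 3 (adjusted p = 0.081 to 0.14).

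PDK4, the kinase that fasting induces (chr7:95583499-95596516, minus strand), was the 1 gene that fell. It had 4.52, 4.07 and 5.33 CPM in the WT dishes, 2.71, 3.25 and 3.78 in G245S, and 3.82, 3.60 and 3.54 in R273H. All mutant dishes lay below all WT dishes. PDK4 fell by 0.50 ± 0.16 on the log2 scale in G245S (adjusted p = 0.018, edgeR), a call lost without WT dish 3 or G245S dish 1 (adjusted p = 0.11 and 0.10), and not made by DESeq2 (adjusted p = 0.11). Its R273H value of -0.34 ± 0.15 was not called (adjusted p = 0.087), but with the coding length and GC offset PDK4 was called lower there too (log2 fold change -0.38, adjusted p = 0.032). PDK2 and PDK3, at 28.2 ± 1.32 and 40.6 ± 3.23 CPM in WT, were not called, except PDK2 as lower in R273H without R273H dish 2 (adjusted p = 0.046) and PDK3 as higher without WT dish 3 (0.048 in G245S, 0.021 in R273H).

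Added up, the 32 genes took 1.63% ± 0.0130 of the counts of WT dishes, 1.75% ± 0.0279 of those of G245S dishes and 1.70% ± 0.00601 of those of R273H dishes (SD, n = 3). The sums of the WT dishes were 16368, 16136 and 16354 CPM, those of the G245S dishes 17785, 17466 and 17229, and those of the R273H dishes 16910, 16944 and 17027. The groups did not overlap, with R273H between WT and G245S. Lactate transport stood out with 22.0% more summed CPM in G245S and 21.4% more in R273H, nearly all of it SLC16A1. The hexokinases gained 12.9% and 11.8%, the PDH E1 subunits 11.4% and 10.4%, and the 8 genes of lower glycolysis 6.08% and 1.92%. Glucose transport changed by -0.947% and 2.53%, within the spread of the dishes. No test was made on these sums, since the genes were chosen with results of these libraries known.

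**Figure D4:**
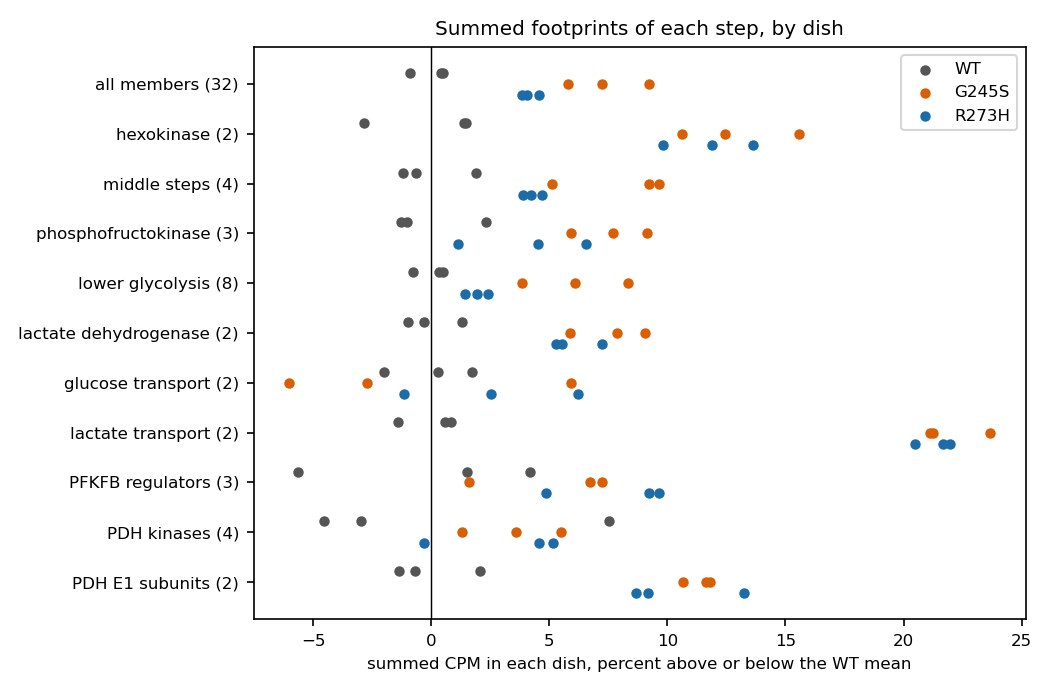
Summed CPM of the genes of each step in each dish, as percent above or below the WT mean, for WT (grey), G245S (orange) and R273H (blue); the number of genes is in brackets. For lactate transport the means of G245S and R273H lie 22.0% and 21.4% above the WT mean, whereas those of glucose transport fall on both sides of 0.

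Fewer genes were called between the mutants than in either against WT. Between G245S and R273H edgeR called no gene of the 32 and 2.59% of all genes tested. An unadjusted p under 0.05 was found for 7 of the 32, beside 15.7% of all genes. DESeq2 called 5 of the 32, beside 6.69% of the 5352 genes to which it gave an adjusted p. The coding length and GC offset gave 1 call, LDHB (adjusted p = 0.0053), beside 4.02% of all genes in that fit. A fit with a block by dish number gave 6 calls, beside 6.37% of all genes. The 7 with an unadjusted p under 0.05 were GPI, ALDOC, TPI1, GAPDH, ENO1, PKM and LDHB. All but ALDOC had the higher fitted value in G245S, with differences of 0.052 to 0.070 on the log2 scale, while ALDOC stood 0.11 ± 0.050 lower there (adjusted p = 0.30, edgeR). The largest of the 6 was GAPDH, at 0.070 ± 0.022 (adjusted p = 0.085). For SLC16A1 the difference was 0.0074 ± 0.022, and 2 SE on either side reached from -0.037 to 0.052. For PDK4 the difference was -0.16 ± 0.16, with limits of -0.48 and 0.15.

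Some of these counts depend on how reads were shared between genes. For 14 of the 32 genes the annotation names processed pseudogenes or other near copies, 65 for GAPDH and 15 for PGAM1. Counts assigned to the copies came to 20.2% of the gene's own for PGAM1, 15.9% for TPI1 and 13.2% for GAPDH. With copies added, PGAM1 kept log2 fold changes of 0.24 and 0.23, whereas GAPDH and TPI1 were then called lower in R273H (-0.056 and -0.073, adjusted p = 0.049 and 0.018, edgeR). Another annotated gene overlaps 21 of the 32 on the opposite strand, and whether the counting used strand is not given in the sources used here.

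The libraries also differed in how their counts ran with coding length and GC content. Over 10886 genes, Spearman's rho between a gene's deviation from its mean and its coding length was -0.18 to -0.14 in the WT dishes, -0.011 to 0.12 in G245S and 0.14 to 0.19 in R273H, as a description across genes that share each library. For GC content, rho over the same genes was -0.18 to 0.26 in WT, -0.18 to 0.34 in G245S and -0.42 to -0.14 in R273H. Dish 3 had the lowest GC value in every group. In a fit that took out coding length and GC content, 18 of the 32 genes rose and 1 fell in G245S, and 17 rose and 1 fell in R273H. Over the 13615 genes of that fit, 20.8% rose and 16.3% fell in G245S, and 19.9% rose and 18.7% fell in R273H. Markers fixed for the labelled epithelial cell and for the kidney line were read as well. KRT8, KRT18, CDH1, EPCAM, CDH2, VIM, PAX2 and LHX1 passed the filter, and KRT19 and PAX8 had at most 3 counts in any library. The 10 summed to 1310 to 1335 CPM in WT, 1417 to 1434 in G245S and 1386 to 1387 in R273H, mostly from VIM. In WT the means were 884 CPM for VIM, 268 for CDH2, 116 for KRT18 and 33.9 for KRT8. CDH1 and EPCAM had only 6.66 and 3.91 CPM there, so the sum hardly reflects them. Of the 8 tested, 2 were called higher in G245S (VIM and LHX1) and 4 in R273H (KRT8, CDH2, PAX2 and LHX1). None was called lower, and 12.6% and 14.2% of all genes were called higher in G245S and R273H. Of 10 markers of other cell types 3 passed the filter (COL1A1, COL3A1 and ACTA1), and their list summed to 45.4 to 50.03 CPM in WT, 40.5 to 48.4 in G245S and 44.1 to 47.6 in R273H. Within these sums, COL1A1 fell in both mutants (log2 fold changes -0.21 ± 0.065 and -0.24 ± 0.063, adjusted p = 0.018 and 0.0045, edgeR), ACTA1 rose in both (0.33 ± 0.097 and 0.40 ± 0.093, adjusted p = 0.011 and 0.0018) and COL3A1 was not called. PTPRC, CD3E, PECAM1, ALB and MYH2 had at most 3 counts in any library. The part of these marker shifts in the results was not tested.

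Genes around the pathway were read from further lists, beside the 24.7% (G245S) and 28.8% (R273H) of all genes called in either direction. Of 30 paralogs of these steps and genes of related function, among them BSG and EMB, 17 passed the filter. Of these, 5 rose and 1 fell in G245S, while 5 rose and 3 fell in R273H. PGAM5, a mitochondrial phosphatase related to PGAM1 by sequence, rose by 0.32 ± 0.038 and 0.25 ± 0.037 on the log2 scale (G245S, then R273H, as for each pair of values from here on; adjusted p = 2.7e-07 and 1.0e-05, edgeR). BSG, basigin, which carries MCT1 to the cell surface, fell by 0.16 ± 0.031 in R273H (adjusted p = 0.00063) and was at -0.063 ± 0.031 in G245S (adjusted p = 0.15). SLC16A7 (MCT2) fell in R273H by 0.43 ± 0.12 (adjusted p = 0.0071).

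Among 8 further genes of pyruvate entry and the PDH complex, 1 rose in G245S, and 2 rose and 1 fell in R273H. DLAT, the E2 subunit, rose by 0.16 ± 0.026 and 0.19 ± 0.026 on the log2 scale (adjusted p = 2.8e-05 and 3.1e-06, edgeR). DLD, the E3 subunit, rose by 0.11 ± 0.028 in R273H (adjusted p = 0.0048), and MPC2, of the mitochondrial pyruvate carrier, fell there by 0.093 ± 0.034 (adjusted p = 0.041).

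Of 13 tested genes of gluconeogenesis and glycogen metabolism, 5 rose and 1 fell in G245S, and 3 rose and 2 fell in R273H. GBE1, the glycogen branching enzyme, had 118 CPM in WT against 28.6 in G245S and 32.7 in R273H, and fell by 2.04 ± 0.045 in G245S and decreased by 1.85 ± 0.042 in R273H on the log2 scale (adjusted p = 3.8e-24 and 9.3e-24, edgeR). PCK2, the mitochondrial enzyme that makes phosphoenolpyruvate, rose by 0.56 ± 0.064 and 0.47 ± 0.063 (adjusted p = 1.0e-07 and 1.3e-06). G6PC3, the glucose 6-phosphatase found in most tissues, fell by 0.25 ± 0.041 in R273H (adjusted p = 2.4e-05) and was not called in G245S (adjusted p = 0.14).

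In the pentose phosphate pathway, which branches off at glucose 6-phosphate, 1 of 8 genes rose in G245S, and 1 rose and 2 fell in R273H. TKT, transketolase, rose by 0.21 ± 0.024 and 0.095 ± 0.024 on the log2 scale (adjusted p = 1.1e-07 and 0.0029, edgeR). H6PD and PGLS fell in R273H, by 0.30 ± 0.095 and 0.26 ± 0.057 (adjusted p = 0.016 and 0.00099).

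Of 18 tested regulators of glucose use, 3 rose and 2 fell in G245S, and 4 rose and 3 fell in R273H. TIGAR, a p53 target that breaks down fructose 2,6-bisphosphate, had 26.1 CPM in WT, 12.7 in G245S and 14.0 in R273H, and fell by 1.04 ± 0.074 and 0.90 ± 0.070 on the log2 scale (adjusted p = 8.3e-12 and 5.7e-11, edgeR). MYC rose by 0.26 ± 0.029 and 0.40 ± 0.029 (adjusted p = 9.6e-08 and 9.9e-12), and EPAS1, the HIF-2 alpha subunit, by 0.37 ± 0.055 and 0.38 ± 0.054 (adjusted p = 9.4e-06 and 3.4e-06). TXNIP, which restrains glucose uptake, was not called (log2 fold changes -0.12 ± 0.056 and -0.062 ± 0.054, adjusted p = 0.11 and 0.43).

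Of 15 tested genes known as HIF-1 targets outside glycolysis, 3 rose and 1 fell in G245S, and 6 rose and 2 fell in R273H. STC2, a secreted glycoprotein, rose by 0.49 ± 0.049 and 0.47 ± 0.048 on the log2 scale (adjusted p = 1.2e-08 and 1.6e-08, edgeR). ERO1A, an oxidase of the endoplasmic reticulum, rose by 0.17 ± 0.038 and 0.20 ± 0.037 (adjusted p = 0.0015 and 0.00010), and BNIP3L, a mitophagy receptor, fell by 0.42 ± 0.055 and 0.38 ± 0.053 (adjusted p = 1.0e-06 and 2.3e-06). The median log2 fold changes of the 6 lists spanned -0.047 to 0.11 for G245S and -0.047 to 0.12 for R273H.

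**Figure D5:**
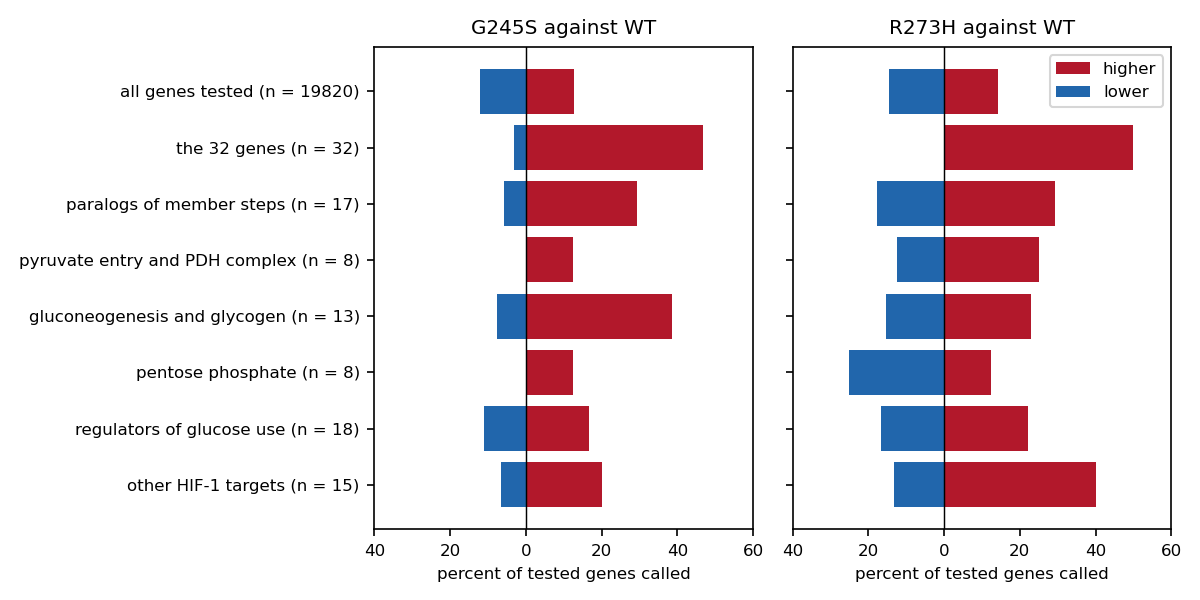
Percent of the tested genes of each list called higher (red, to the right) or lower (blue, to the left) in G245S and R273H against WT, with the number tested in brackets. The 32 genes had 15 called higher and 1 lower of 32 in G245S, and 16 and 0 in R273H.

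Since MYC is among the genes that rose and binds the E-box CACGTG, the start regions of the 32 genes were searched for these letters, which read the same on both strands and contain ACGTG, a core that HIF-1 also binds. RefSeq start regions of GRCh38.p14, from 250 bases before to 50 after a start, were at hand for 29 of the 32 genes, and 8 of these held CACGTG in some start region, as did 8.77% of the 27305 genes in that table (7.26% of 35116 start regions). The 29 genes have 58 start regions among them, of which 8 held the letters. The 8 were ALDOA, ALDOC, GAPDH, HK2, LDHA, PDHB, PDK2 and PFKFB3. Of these, 5 were called in a mutant, beside 18 of all 32 genes, and GAPDH, PDK2 and PFKFB3 were not. The stretches below, of HK2, LDHA, GAPDH and PFKFB3, show the match, in capitals, with 12 bases on each side, 5′ to 3′ on the strand of the gene. They take in called and uncalled genes alike, and stretches of ALDOA, ALDOC, PDHB and PDK2 are not shown.
HK2, 194 bases before the start, chr2:74834964-74834993, plus strand: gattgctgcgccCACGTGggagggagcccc
HK2, 149 bases before the start, chr2:74835009-74835038, plus strand: ttccggcgagagCACGTGgagagaatcgtg
LDHA, 185 bases before the start, chr11:18394366-18394395, plus strand: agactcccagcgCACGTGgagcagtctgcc
LDHA, 87 bases before the start, chr11:18394464-18394493, plus strand: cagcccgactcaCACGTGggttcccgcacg
GAPDH, 81 bases before the start, chr12:6535171-6535200, plus strand: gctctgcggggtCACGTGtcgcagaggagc
PFKFB3, 108 bases before the start, chr10:6202812-6202841, plus strand: caccctcctcccCACGTGgaagggggctgg
In GENCODE v44 the LDHA stretches lie upstream of the gene, and those of HK2, GAPDH and PFKFB3 lie in introns of transcripts that start further upstream. A match is a run of letters and no measure of binding.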

How the data were processed

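Ribo-seq libraries of 3 groups with 3 dishes each were analysed from 1 table. The deposited values are expected counts per gene (estimates that need not be whole), made by the authors from reads aligned to GRCh38 with STAR after Trim Galore, UMI-tools and removal of rRNA, without scaling. The counting tool, annotation release and strand setting are not given in the sources used here, and 61.5% to 63.7% of nonzero values were not whole. Counts were rounded, filtered with filterByExpr, scaled by TMM and tested in R 4.3.3 with the two-sided quasi-likelihood test of edgeR 4.0.16 (robust glmQLFit), all 9 libraries in a single fit by group that left 6 residual degrees of freedom. Benjamini-Hochberg adjustment ran over 19820 genes. CPM use TMM-scaled totals. Dishes are the replicates and differed by more than sampling noise (chi-square per degree of freedom 1.48 to 2.62). Coordinates, coding length and GC content come from GENCODE v44, which 99.09% of the gene identifiers matched.

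The 32 genes and all lists were chosen with earlier results of these data known. Dish values are given for genes called in a mutant against WT with a log2 fold change of at least 0.2 in size and for the gene of highest density; from each further list up to 3 genes with the smallest adjusted p at a mean count of at least 100 are named, with TIGAR and TXNIP. Alternatives were RLE and upper-quartile scaling, no filter, DESeq2 1.42.0, glmTreat at 1.2-fold, the 6 libraries compared, a dish-number block, a coding length and GC offset, near copies added, and each dish left out. A marker of other cell types is not reported here and was left out of its list.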

Additional observations from a re-analysis of the deposited data

Results flagged for a closer look

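In the edgeR fit of all 9 libraries without a replicate block or an offset, no gene of the 32 was called between the mutants. Groups of 3 dishes are too small for a search for outlying dishes. Among the genes named from the neighbouring lists, 6 were called between the mutants (edgeR, adjusted p under 0.05 over all genes, G245S over R273H, which is the test of the difference between their changes against WT). TKT stood 0.11 ± 0.023 higher in G245S on the log2 scale (adjusted p = 0.0063) and G6PC3 0.17 ± 0.041 higher (adjusted p = 0.023). MYC had a log2 difference of -0.14 ± 0.028 (adjusted p = 0.0048) and GBE1 one of -0.19 ± 0.052 (adjusted p = 0.040). Of the markers, KRT8 had a log2 difference of -0.30 ± 0.048 (adjusted p = 0.00053) and VIM one of 0.11 ± 0.022 (adjusted p = 0.0048). DDIT4 and KDM3A, HIF-1 targets not named above, were also called, at 0.23 ± 0.045 and -0.15 ± 0.039 (adjusted p = 0.0038 and 0.031, edgeR).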

How the results depend on the processing

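The counts of genes called against WT stayed within 1.5 times of 16 under both other scalings, no filter, DESeq2 (13 in G245S, 14 in R273H), the 6 libraries compared, the coding length and GC offset and added copies, and fell to 0 in both mutants with a minimum fold of 1.2. Leaving out 1 dish gave 13 to 17 calls in G245S and 10 to 18 in R273H. Over all genes the same fits gave 3899 to 4850 and 4526 to 5829 calls, the lowest of each without WT dish 2. Of the 32, R273H had 10 calls without WT dish 2, and ALDOA, ENO2, PKM, SLC2A3, PDK1 and PDHB lost their call. Of the genes called, 12 in G245S and 10 in R273H kept their call whichever dish was left out. Over all genes, DESeq2 called 3049 in G245S and 3571 in R273H beside 4900 and 5707 by edgeR. A minimum fold of 1.2 left 547 and 693. Between the mutants, where edgeR called 513 of all genes, leaving out 1 dish gave 162 to 712, a minimum fold of 1.2 gave 3 and the block 1262 (777 with the offset). Among the 32, DESeq2 called 5 genes (PKM, ENO1, GPI, GAPDH and TPI1), and leaving out 1 dish gave 0 to 2 (PKM and GAPDH without G245S dish 3, GAPDH without WT dish 3).

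Dishes of the same number in different groups correlated at 0.042 to 0.228 in their deviations over 12656 genes, above 0.1 in 4 of 9 pairs. Dishes of different numbers correlated at -0.183 to 0.058. The main fit did not pair the dishes by number, and whether the numbers mark a shared batch was not tested. A replicate block gave 18 calls in G245S, 17 higher and 1 lower (PFKM and ALDOC added as higher), beside 29.2% of all genes called. In R273H it gave 20 calls, 17 higher and 3 lower, beside 33.0% of all genes. There PFKFB3 was added as higher, and TPI1, GAPDH and PGK1 as lower (log2 fold changes -0.053, -0.055 and -0.044). Between the mutants the block gave 6 calls (GPI, TPI1, GAPDH, ENO1, PKM and LDHB), beside 6.37% of all genes. With the coding length and GC offset, with or without the block, LDHB was the 1 gene called between the mutants.

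The summed CPM with copies added was 17089 in WT, 18328 in G245S and 17761 in R273H, and 17036 in R273H under upper-quartile scaling, in the same order of groups. Genes that were not called changed sign near 0. With the offset, PFKL in G245S was at -0.014 (-0.013 with the block), PGK1 in G245S at 0.0037 (0.0036) and TPI1 in R273H at 0.0078 (0.0080), and under upper-quartile scaling PGK1 was at 0.0058. Without 1 dish, the log2 fold changes in G245S ran from -0.0037 to 0.036 for PFKL, -0.0030 to 0.039 for GAPDH, -0.018 to 0.0090 for PGK1, -0.012 to 0.30 for ENO3 and -0.065 to 0.12 for PFKFB4. In R273H they ran from -0.00055 to 0.050 for PFKM, -0.15 to 0.19 for ENO3, -0.0088 to 0.047 for SLC2A1 and -0.17 to 0.40 for SLC16A3. The cause of these shifts was not tested. The spread between dishes set the limit for abundant genes, and depth for SLC16A3, ENO3, PFKFB4, SLC2A3 and PDK4, all with a mean below 100 counts.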
